A study of Mus musculus with 4 samples.

Results

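The genes described here form the cytostatic program of epithelial cells: Cdkn1a, Cdkn1b, Cdkn1c, Cdkn2a and Cdkn2b, which encode inhibitors of cyclin-dependent kinases (Cdks), and Myc, Ccnd1 and Cdc25a, which drive cells through G1. They were chosen by name, as 8 of the 22350 protein-coding genes of the GENCODE vM1 annotation, by a rule that uses no measured value. Open chromatin was mapped in NMuMG, an established mouse epithelial line from the normal mammary gland, by ATAC-seq, in which the Tn5 transposase cuts and tags DNA that nucleosomes leave exposed. The data comprise 3 peak lists for 4 samples, 1 sample per group. Cells kept in complete medium, with serum and insulin, received vehicle or 5 ng/ml TGFβ1 for 2 h. Cells deprived of serum and insulin for 6 h received vehicle or 5 ng/ml TGFβ1 for 10 min. Both samples of the 10 min experiment carry the same list in the labels. Its name points to the TGFβ treatment, and from which of the libraries its peaks were called was not settled, so it is read here as a list of the starved experiment and not of a treatment. One label of the TGFβ sample at 10 min gives its time as 2 h, whereas its title and protocol say 10 min.

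TGFβ is a cytokine that halts the proliferation of many epithelial cells in G1. Its receptors phosphorylate Smad2 and Smad3, which join Smad4 and other transcription factors on DNA. In epithelial cells this is known to raise the Cdk inhibitors p15Ink4b (Cdkn2b) and p21Cip1 (Cdkn1a) and to lower Myc, which otherwise holds both inhibitors down. Serum acts in the opposite direction, since mitogens induce Myc and then cyclin D1 (Ccnd1), the partner of Cdk4 and Cdk6 that starts the inactivation of the retinoblastoma protein. Cdc25a removes the inhibitory phosphate from Cdk2.

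An accessible region here is a deposited interval of at least 150 bp, joined to any neighbour less than 1000 bp away. All coordinates are of the mouse build mm9 and count from 1. A gene was scored as having a promoter region when a region overlapped the 1000 bp on either side of an annotated transcription start site (TSS), and its locus was the gene body with 20 kb on either side. A region of the TGFβ list that overlapped no vehicle region by at least 1 bp is called TGFβ-only, and vehicle-only regions are defined in the same way. Each region has a score, the scaled irreproducible discovery rate (IDR), from 540 to a cap of 1000. Distances run from the centre of a region to the nearest annotated start of the gene. With 1 list per condition and no read counts there was no test between conditions. The lists give no depth. Read totals that accompany the study were not used as data here, and in complete medium they are somewhat lower for TGFβ than for vehicle. The intervals given are exact 95% intervals of counting error only.

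After joining, there were 19648 vehicle regions, 38532 TGFβ regions and 26732 regions in the 10 min list, so that the TGFβ list was 1.96 times as long as the vehicle list. Regions lay at a TSS of the luminal keratin genes Krt8 and Krt18 in all 3 lists. Of the epithelial adhesion genes, Cdh1 had a TSS region in the 10 min list only and Epcam had one in no list. The blood and endothelial genes Ptprc, Pecam1 and Cdh5 had a TSS region in no list, and Cd68 had one in the TGFβ list. These 8 marker genes were chosen after the lists had been examined.

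The loci of the cytostatic genes held 12 TGFβ-only regions. The sequences of 6 are shown here, from genes with a RefSeq promoter entry. They hold a consensus of a factor that acts with or beside TGFβ signals, since such a match or a score at the cap was required. The stretches shown lie outside exons. Of all 12, 8 held an AP-1 or SMAD match over their whole length, against 58.3% of all TGFβ-only regions. Regions at Myc, Ccnd1 and Cdkn1c, which have no RefSeq promoter entry, are not shown. Those at Myc and at the Ccnd1 start hold no AP-1 or SMAD match. Capitals mark matches to AP-1 (TGACTCA or TGAGTCA), the Fos and Jun dimer that answers mitogens and stress, and to the SMAD motif (GTCTAGAC, or CAGACA and its reverse complement TGTCTG). They are read on the forward strand of mm9.
Cdkn1a far upstream, chr17:29209778-29210027: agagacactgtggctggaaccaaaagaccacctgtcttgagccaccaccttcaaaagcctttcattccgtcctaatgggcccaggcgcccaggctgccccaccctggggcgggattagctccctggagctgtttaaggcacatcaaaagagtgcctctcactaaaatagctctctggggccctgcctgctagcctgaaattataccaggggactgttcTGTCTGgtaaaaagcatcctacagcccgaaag
Cdkn1a intron, chr17:29232420-29232619: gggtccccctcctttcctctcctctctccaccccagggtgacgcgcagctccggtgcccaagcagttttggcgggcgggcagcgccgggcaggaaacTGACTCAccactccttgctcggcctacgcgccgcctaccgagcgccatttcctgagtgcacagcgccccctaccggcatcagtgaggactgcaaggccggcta
Cdkn1b upstream, chr6:134854028-134854227: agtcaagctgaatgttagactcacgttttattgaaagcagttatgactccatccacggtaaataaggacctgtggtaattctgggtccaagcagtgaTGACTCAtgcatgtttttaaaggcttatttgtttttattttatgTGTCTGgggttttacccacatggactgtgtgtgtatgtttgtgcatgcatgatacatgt
Cdkn2a downstream, chr4:88903782-88903981: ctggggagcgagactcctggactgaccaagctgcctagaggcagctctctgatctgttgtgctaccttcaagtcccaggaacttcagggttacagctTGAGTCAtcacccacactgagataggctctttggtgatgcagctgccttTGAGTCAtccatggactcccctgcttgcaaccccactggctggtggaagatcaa
Cdkn2a-Cdkn2b interval, chr4:88948120-88948413: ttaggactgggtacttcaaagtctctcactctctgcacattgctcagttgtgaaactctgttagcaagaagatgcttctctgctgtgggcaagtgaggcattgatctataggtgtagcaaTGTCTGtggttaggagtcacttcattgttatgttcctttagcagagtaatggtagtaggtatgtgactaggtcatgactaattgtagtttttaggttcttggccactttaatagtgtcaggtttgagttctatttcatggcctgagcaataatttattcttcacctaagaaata
Cdc25a downstream, chr9:109810423-109810622: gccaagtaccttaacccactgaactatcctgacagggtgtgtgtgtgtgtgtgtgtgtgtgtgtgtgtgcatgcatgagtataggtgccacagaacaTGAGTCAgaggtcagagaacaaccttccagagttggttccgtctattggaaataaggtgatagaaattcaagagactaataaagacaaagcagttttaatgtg

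The AP-1 match TGACTCA lies in an intron of Cdkn1a and upstream of Cdkn1b, where a SMAD match stands beside it. The region downstream of Cdkn2a holds 2 matches to TGAGTCA. The region between Cdkn2a and Cdkn2b and the one far upstream of Cdkn1a hold 1 SMAD match each and no AP-1 match. The stretch downstream of Cdc25a holds TGAGTCA once. A match is a property of the sequence and does not show binding.

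Accessible regions were more numerous over these loci in the TGFβ list than in the vehicle list. There were 10 vehicle regions covering 5617 bp, 20 TGFβ regions covering 11506 bp and 23 regions of the 10 min list covering 14867 bp. There were thus 2.00 TGFβ regions for each vehicle region over the loci (0.894–4.78), beside 1.96 (1.93–2.00) over the whole lists, and the genome-wide value lies inside the interval of the loci. When the longer lists were shortened by score to the number of vehicle regions, the loci held 14 TGFβ regions, or 1.40 for each vehicle region, of which 7 were TGFβ-only. Of the 20 TGFβ regions 12 were TGFβ-only, or 60.0% (36.1–80.9), against 52.4% of the whole list and 48.7% of the TGFβ regions within 20 kb of protein-coding genes. The genome-wide shares fall inside the interval. Vehicle-only regions were 2 of 10 (2.52–55.6%), against 6.44% of the whole vehicle list, and this interval also holds the genome-wide value.

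Every cytostatic gene had at least 1 TGFβ-only region in its locus, 8 of 8 against 50.2% of all protein-coding genes, and 40.6% of the 12688 genes no longer than Cdkn2a, the longest of the 8. The loci of Cdkn2a and Cdkn2b overlap and share a TGFβ-only region, which is the only one of Cdkn2b. With lists of equal length 7 of the 8 genes still had a TGFβ-only region, against 17.7% of all protein-coding genes, and Cdkn1c did not. No share for genes of limited length was computed there. In the full TGFβ list the 8 loci held 3 or 4 regions each, except Cdkn1c with 1. The mean was 2.17 over all protein-coding genes and 1.57 over those no longer than Cdkn2a. The part of region number in these shares was not tested. Over the full lists Myc had 3 TGFβ-only regions, Cdkn1a, Cdkn2a and Ccnd1 had 2 each, and Cdkn1b, Cdkn1c, Cdkn2b and Cdc25a had 1 each. Vehicle-only regions occurred at 2 of 8 genes, Cdkn1c and Ccnd1, against 6.93% of all genes. Myc was the 1 gene of the 8 with no vehicle region and at least 1 TGFβ region in its locus, against 11.1% of all genes.

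**Figure D1:**
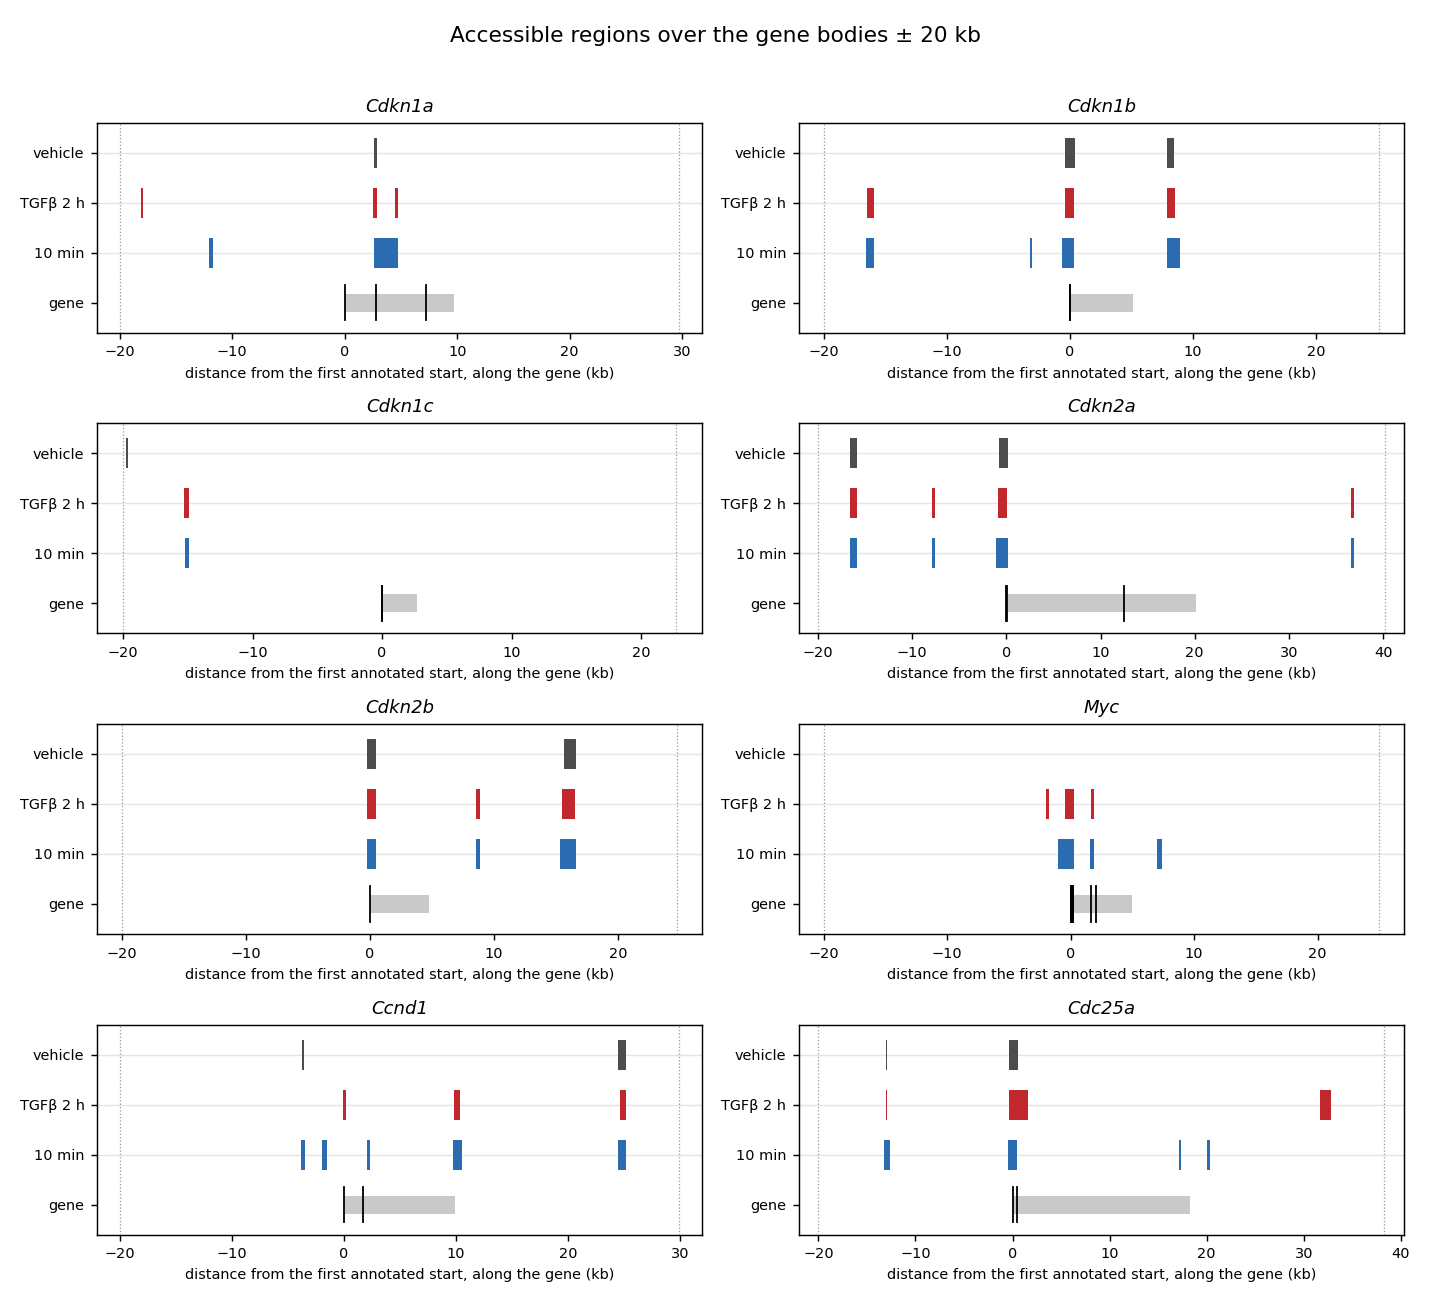
Accessible regions over the 8 loci, 1 panel per gene, plotted against the distance in kb from the first annotated start along the direction of transcription. Each coloured block is a region of the vehicle, TGFβ 2 h or 10 min list (the narrowest blocks are drawn wider to stay visible), the grey bar is the gene body, black ticks are annotated starts and dotted lines mark the limits at 20 kb. The vehicle track of Myc is empty, and each TGFβ track holds at least 1 block without a vehicle block above it.

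Of the 8 genes, 5 had a promoter region under vehicle, 7 under TGFβ and 7 at 10 min. Across all protein-coding genes the shares were 41.0%, 47.6% and 46.3%. Cdkn1a, Cdkn1b, Cdkn2a, Cdkn2b and Cdc25a had a promoter region in all 3 lists. Myc and Ccnd1 had one in the TGFβ and not in the vehicle list, 2 of 8 genes against 7.24% of all genes. The Ccnd1 region was lost with a minimum width of 300 bp, with peaks at or above the median score and with lists of equal length, and the Myc region was kept under each of these. With peaks at or above the median score Cdkn1a, too, had a promoter region in the TGFβ and not in the vehicle list. No gene of the 8 had one in the vehicle list alone of the complete-medium pair, a state of 0.622% of all genes. Cdkn1c had a promoter region in no list.

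**Figure D2:**
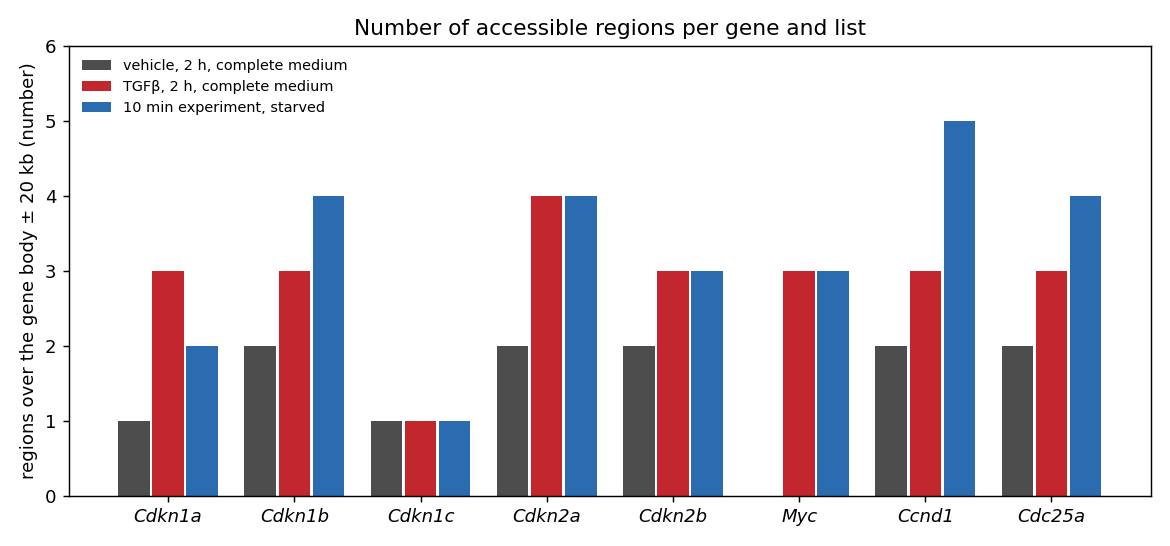
Number of regions over each gene body ± 20 kb in the vehicle (grey), TGFβ (red) and 10 min (blue) lists, 1 list per condition and so without error bars. The TGFβ bar is higher than the vehicle bar for 7 of the 8 genes and equal for Cdkn1c. Cdkn2a and Cdkn2b share regions.

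Among the Cdk inhibitors, Cdkn2b encodes p15Ink4b, which binds Cdk4 and Cdk6 and is the classical TGFβ target. Its promoter region was nearly the same in the 3 lists, with widths of 717, 722 and 722 bp (vehicle, TGFβ, 10 min), each at the score cap of 1000. The vehicle region ran from 88956436 to 88957152 on chromosome 4, over the TSS at 88956941. Its lower edge was the same base in both complete-medium lists.

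Cdkn2a neighbours Cdkn2b on the same strand of chromosome 4 and encodes 2 unrelated proteins from separate starts. The upstream start, at 88940557 and 88940523, gives p19Arf, which stabilises p53 by binding Mdm2. It lay inside a region in all 3 lists, 923 bp wide with a score of 806 under vehicle, 1020 bp with 947 under TGFβ and 1279 bp with 756 at 10 min. The downstream start at 88928096, which gives the Cdk4 and Cdk6 inhibitor p16Ink4a, had no region within 1000 bp in any list. A region was therefore called at the Arf start and not at the Ink4a start in each list.

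TGFβ-only regions flanked Cdkn2a on both sides. One lay 7710 bp upstream of the nearest start (88948120 to 88948413, 294 bp, score 1000), between Cdkn2a and Cdkn2b. The other lay beyond the 3′ end, in an intron of the predicted gene Gm12606 (88903695 to 88904021, 327 bp, score 981). Both were also in the 10 min list, with scores of 749 and 563, and neither overlapped a vehicle region.

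Cdkn1a encodes p21Cip1, an inhibitor of Cdk2 complexes that is induced by p53 and by Smads. The middle of its 3 annotated starts, at 29230717 on chromosome 17, lay inside a region in each list. The region was 350 bp wide with a score of 892 in the vehicle list and 384 bp wide with a score of 1000 in the TGFβ list. In the 10 min list it was 2158 bp wide with a score of 1000 and joined 3 deposited intervals. The first start, at 29227924, and the last, at 29235152, had no region within 1000 bp in any list.

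At Cdkn1a the TGFβ list added an intronic region, 1806 bp downstream of the middle start (29232364 to 29232681, 318 bp, score 947), the one whose AP-1 match is printed above. The wide 10 min region reached 29232678 and so covered this site as well, and held 3 AP-1 matches over its length. The intronic region also holds GGCGGGAA, the letters described as the TGFβ inhibitory element. A second TGFβ-only region lay 18021 bp upstream of the nearest start (29209778 to 29210027, 250 bp, score 602) in an intron of the predicted gene Gm16197 and was not in the 10 min list. The 10 min list alone had a region at a TSS of Gm16197 (29215830 to 29216184, score 727).

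The starts of Cdkn1a and Cdkn2a offer a comparison within a gene, since each gene has an annotated start in a region and another without one in all 3 lists. The 250 bases before these starts are shown, from RefSeq on GRCm38.p6, each read along the gene, with matches to the SMAD motif and to GGGCGG, the GC box bound by Sp1, in capitals. The pairs were matched to the mm9 starts by their spacing, 2790 bp in RefSeq and 2793 bp in GENCODE for Cdkn1a, and 12427 bp in both for Cdkn2a. This set was chosen after the values had been seen. RefSeq promoters were found for 5 of the 8 genes and not for Myc, Ccnd1 and Cdkn1c.
Cdkn1a, first start, chr17:29090729-29090978: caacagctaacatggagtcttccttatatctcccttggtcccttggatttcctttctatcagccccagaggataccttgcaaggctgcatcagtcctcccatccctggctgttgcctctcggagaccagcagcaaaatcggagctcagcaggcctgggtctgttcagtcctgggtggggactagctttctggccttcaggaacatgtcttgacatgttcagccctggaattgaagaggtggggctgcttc
Cdkn1a, middle start, chr17:29093519-29093768: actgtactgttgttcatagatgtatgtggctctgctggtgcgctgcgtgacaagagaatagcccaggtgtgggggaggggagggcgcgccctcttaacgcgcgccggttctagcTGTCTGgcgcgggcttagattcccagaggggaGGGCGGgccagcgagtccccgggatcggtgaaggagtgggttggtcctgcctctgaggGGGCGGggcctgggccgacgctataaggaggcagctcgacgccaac
Cdkn2a, p16Ink4a start, chr4:89282193-89282442: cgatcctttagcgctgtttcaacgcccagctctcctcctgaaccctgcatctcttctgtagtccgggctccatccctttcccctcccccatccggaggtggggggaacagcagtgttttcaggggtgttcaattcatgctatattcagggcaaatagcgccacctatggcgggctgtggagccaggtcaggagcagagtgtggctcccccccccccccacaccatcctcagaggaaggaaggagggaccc
Cdkn2a, p19Arf start, chr4:89294620-89294869: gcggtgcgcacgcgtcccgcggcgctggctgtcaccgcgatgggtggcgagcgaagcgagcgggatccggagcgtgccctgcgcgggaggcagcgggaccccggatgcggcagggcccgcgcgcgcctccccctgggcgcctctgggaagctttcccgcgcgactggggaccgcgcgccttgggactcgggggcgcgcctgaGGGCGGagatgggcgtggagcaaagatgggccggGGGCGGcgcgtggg

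The stretches before the accessible starts were richer in CpG dinucleotides. Before the middle start of Cdkn1a there were 19 CpGs and a GC content of 64.8%, and before its first start 2 CpGs and 54.0%. Before the p19Arf start of Cdkn2a there were 40 CpGs and 78.4% GC, and before the p16Ink4a start 7 CpGs and 60.0%. Over the 300 bases searched, which include 50 bases after the start, the middle start of Cdkn1a had 2 GC boxes and 1 SMAD match and the first start had neither, while the p19Arf start had 3 GC boxes and the p16Ink4a start 1. Among 32817 RefSeq promoters 35.6% held a GC box and 21.2% a SMAD match.

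Cdkn1b encodes p27Kip1, the inhibitor that accumulates when mitogens are withdrawn. Its promoter region was at the score cap in the 3 lists, with widths of 824, 776 and 1024 bp (vehicle, TGFβ, 10 min). A region downstream of the gene was likewise in all lists and at the cap, 596 bp wide in the vehicle list and 661 bp in the TGFβ list. The TGFβ list added a region 16219 bp upstream of the start (134853907 to 134854493 on chromosome 6, 587 bp, score 1000). The 10 min list held this site too, with a score of 734, and alone held a narrow region 3131 bp upstream of the start (161 bp, score 593).

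Cdkn1c encodes p57Kip2, an imprinted inhibitor, and was the one gene of the 8 without a promoter region in any list. Its start lies at 150646955 on chromosome 7. The nearest regions were upstream, at the next gene, Slc22a18, which encodes a membrane transporter. The vehicle-only region was in an intron of Slc22a18, 177 bp wide with a score of 774, 19685 bp from the Cdkn1c start, and held a match to the motif of CTCF, a protein that organises chromatin loops. The TGFβ-only region (150661899 to 150662243, 345 bp, score 866) lay at the Slc22a18 start, 15116 bp from that of Cdkn1c, with 1 AP-1 and 2 SMAD matches. It overlapped a 10 min region with a score of 815.

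Myc encodes the transcription factor that promotes growth and represses Cdkn1a and Cdkn2b. The vehicle list held no region within 20 kb of it. The nearest vehicle regions lay 375314 bp upstream and 47319 bp downstream of the gene, which left a stretch of 427617 bp. Among the 11958 protein-coding genes with no vehicle region over the gene body the median stretch was 271530 bp, and 39.8% had a longer one than Myc. Such a gap was therefore common in the vehicle list.

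Within that stretch lay 7 TGFβ regions and 4 of the 10 min list, none of them at the score cap. The TGFβ region over the first start (61816517 to 61817244 on chromosome 15) was 728 bp wide with a score of 985. A second TGFβ region was near the internal starts (61818604 to 61818865, 262 bp, score 705), and another lay 1876 bp upstream of the first start (61814933 to 61815206, 274 bp, score 672) with a CTCF match. The 10 min list matched the first and the second of these, with widths of 1339 bp and 309 bp and scores of 868 and 720. It did not hold the upstream one and added a region 3′ of the gene (61823935 to 61824380, 446 bp, score 669) with 2 AP-1 matches.

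The TGFβ inhibitory element, GGCGGGAA, was described in the human MYC promoter as the site through which a complex of Smad3 with E2F4 or E2F5 represses the gene. In these data the letters occurred at 61817034, inside both the TGFβ and the 10 min region over the Myc start. The match lay 88 bp downstream of the first annotated start and 85 bp upstream of the Myc-004 start. Within 200 bp of region centres the letters were held by 1.91% of all TGFβ regions, and among RefSeq promoters by 2.19%. The region over the start held no AP-1 match in either list.

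Ccnd1 encodes cyclin D1. Its protein-coding start, at 152125774 on chromosome 7, lay in a TGFβ region of 255 bp with a score of 648 (152125585 to 152125839), which overlapped no vehicle and no 10 min region. The promoter call in the 10 min list came from another region, 209 bp wide with a score of 652, in the gene near the start of a transcript with a retained intron (152124102). The Ccnd1 promoter regions were thus narrow, of low score and at different places in the lists that had one.

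The other Ccnd1 regions also differed between lists. A TGFβ-only region of 560 bp at the score cap overlapped the 3′ end of the gene (152115383 to 152115942), with 3 SMAD matches, and was in the 10 min list with a score of 934. The neighbouring gene Oraov1 overlaps this site, and the shared region at the Oraov1 start was in all 3 lists. A vehicle-only region 3610 bp upstream of the Ccnd1 start (152129280 to 152129487, 208 bp, score 652) held GGCGGGAA and the E-box CACGTG, the site of Myc and Max. It was also in the 10 min list, with a score of 698, as was a 489 bp region 1720 bp upstream of the start (152127250 to 152127738, score 990) that neither complete-medium list held.

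Cdc25a encodes a phosphatase that TGFβ is known to lower in epithelial cells. Its promoter region was at the score cap in each list. Its width was 950 bp under vehicle, 1943 bp under TGFβ and 957 bp at 10 min. The TGFβ region reached from 109777735 to 109779677 on chromosome 9 and joined 3 intervals, and the vehicle region ended at 109778656, so the added width lay downstream of the start. A TGFβ-only region beyond the 3′ end (109809720 to 109810852, 1133 bp, score 1000) was the widest TGFβ-only region of the 8 loci and was not in the 10 min list. A region with a CTCF match, 12968 bp upstream of the start, was in all 3 lists, 162 and 151 bp wide in complete medium and 557 bp at 10 min, with scores of 695, 661 and 598 (vehicle, TGFβ, 10 min).

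**Figure D3:**
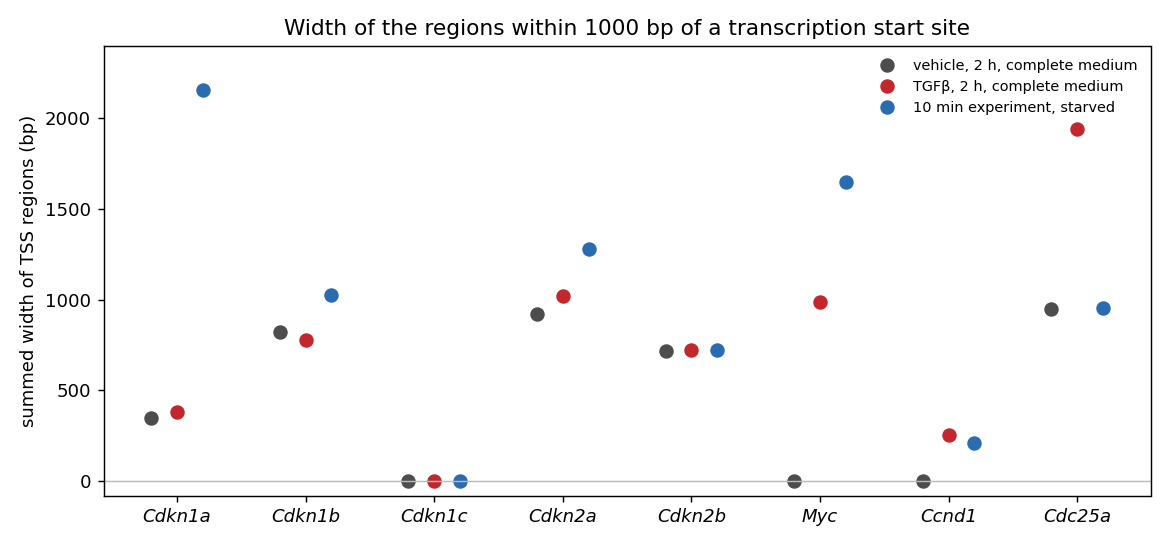
Summed width in bp of the regions within 1000 bp of an annotated start, 1 point per gene and list (vehicle grey, TGFβ red, 10 min blue), with no replicates and so no error bars. Cdkn2b points coincide at 717 to 722 bp, the vehicle points of Myc and Ccnd1 are at 0, Cdc25a is widest in the TGFβ list at 1943 bp and Cdkn1a in the 10 min list at 2158 bp.

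The TGFβ-only regions differed from the shared ones in width and position. Their median width was 322 bp, and that of the 8 TGFβ regions that overlapped a vehicle region was 692 bp, beside 281 bp and 546 bp over the whole list. At the score cap were 4 of the 12 TGFβ-only and 6 of the 8 shared regions, and over the whole list 13.9% and 71.6%. Within 1000 bp of a start of any gene lay 4 of the 12 and 6 of the 8, against 11.7% and 46.8% of the whole list. The 4 were 2 regions at Myc, 1 at Ccnd1 and 1 at Slc22a18. The loci lie around genes, whereas the whole list also holds regions far from any gene. A higher share at starts is therefore partly set by the choice of loci, and the share among regions near genes was not computed.

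Most of the TGFβ-only regions were also in the list from starved cells at 10 min. This held for 8 of 12, or 66.7% (34.9–90.1), against 31.5% of TGFβ-only regions over the whole list and 34.4% of those within 20 kb of protein-coding genes. The lower bound lies just above both values, and the interval treats neighbouring regions as independent, which they are not. The 4 exceptions were the far upstream region of Cdkn1a, the upstream region of Myc, the region at the Ccnd1 start and the downstream region of Cdc25a. The 10 min list differs in medium and time and may come from vehicle cells, TGFβ cells or both, so treatment, medium and time cannot be told apart in this share.

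The 10 min list also held regions of its own. Of its 23 regions 8 overlapped regions of both complete-medium lists, 7 a TGFβ region only and 1 a vehicle region only. The remaining 7, or 30.4% (13.2–52.9), overlapped neither, against 12.2% of the whole list and 11.7% of its regions near protein-coding genes. They were found at Cdkn1a, Cdkn1b, Myc, Ccnd1 and Cdc25a, with scores from 550 to 990, and the highest was the region upstream of Ccnd1.

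Consensus matches were counted within 200 bp of each region's centre on both strands. AP-1 was matched in 0 of 10 vehicle regions (0–30.8%), 4 of 20 TGFβ regions (5.73–43.7%) and 5 of 23 regions of the 10 min list (7.46–43.7%), with 27.4%, 32.0% and 27.1% over the whole lists. The SMAD motif was matched in 1, 8 and 8 regions, or 10.0%, 40.0% and 34.8%, against 28.6%, 35.0% and 28.9%. The GC box was matched in 7, 12 and 10 regions, or 70.0%, 60.0% and 43.5%, against 40.3%, 25.7% and 34.7%. In the TGFβ list the interval of the GC box share (36.1–80.9) lies above the share of the whole list. These GC box counts were not split by position. Of the TGFβ-only regions 4 of 12 lay at a TSS of some gene, and of the shared ones 6 of 8. Over the whole list these shares were 11.7% and 46.8%, and the part of position in the GC box share was not tested. The ETS letters CCGGAAGT were in no region of the loci, against 2.77% to 4.71% of the whole lists. The forkhead letters TGTTTAC were in 0 of 10, 1 of 20 and 4 of 23 regions, against 7.21%, 7.69% and 7.53% of the whole lists.

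**Figure D4:**
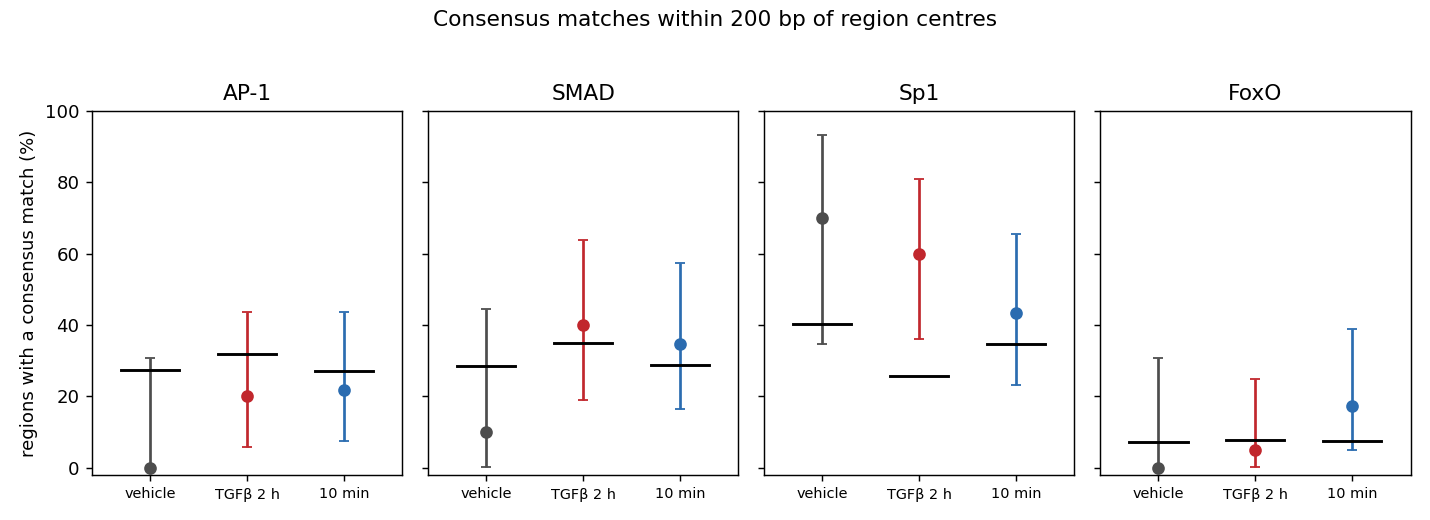
Share of regions with a consensus match within 200 bp of the centre, in percent, for AP-1, SMAD, Sp1 (the GC box) and FoxO (the forkhead letters). Points are the regions of the 8 loci (10 vehicle, 20 TGFβ and 23 in the 10 min list) with exact 95% intervals and black bars are the whole lists, which fall inside every interval except that of Sp1 in the TGFβ list.

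Over their whole length 5 of the 12 TGFβ-only regions held an AP-1 match, 6 a SMAD match, 8 either and 3 both, and over the whole list the shares were 38.1%, 36.1%, 58.3% and 15.9%. Of the 8 shared regions none held an AP-1 match and 3 held a SMAD match, against 34.1% and 39.3% of all shared regions. Within 200 bp of the centre AP-1 was matched in 4 of the 12 TGFβ-only regions and SMAD in 6, against 36.8% and 40.5%. Position moves with this difference, since 6 of the 8 shared regions lay at a TSS of some gene, and its part in the difference was not tested. Over the whole list AP-1 was matched within 200 bp of the centre in 6.55% of shared regions at a TSS and in 44.8% of distal ones, and in 18.0% and 39.2% of TGFβ-only regions.

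The wider G1 network was read from 50 genes in 6 lists. Promoter regions were called for 38 of them under vehicle, 40 under TGFβ and 42 at 10 min, and 23 of the 50 had at least 1 TGFβ-only region in their locus, where all protein-coding genes have 50.2%. Most of these promoters were thus called in each list, and the share was above that of all protein-coding genes in the 3 lists.

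Among G1 cyclins and Cdk catalytic subunits the promoter was called for 8 of 10 genes in each list. Ccnd2, a second D-type cyclin, and Cdk6, its kinase partner, had a promoter region in no list. Other inhibitors and the ubiquitin ligase parts that degrade p27Kip1 and cyclin E were called for 5 of 6 in each list, and the exception was Cdkn2d, which encodes p19Ink4d. Cdc25 phosphatases and the kinases that oppose them were called for 5 of 5 in each list.

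Among pocket proteins and E2F factors 8 of 11 genes were called in the vehicle list and 9 in each of the others. Rb1, the retinoblastoma gene, had a TGFβ promoter region 735 bp wide with a score of 915 and a 10 min one of 688 bp, and no vehicle region at a start. E2f2, an activating E2F, had one of 609 bp with a score of 674 in the TGFβ list and one of 834 bp in the 10 min list. Tfdp1, the DNA-binding partner of E2F proteins, went the other way, with a vehicle region of 285 bp and a score of 764 and none in the TGFβ and 10 min lists. E2f6, a repressive family member, had a promoter region in no list.

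In the Myc network 4 of 10 genes were called under vehicle, 6 under TGFβ and 8 at 10 min. Across all protein-coding genes these shares were 41.0%, 47.6% and 46.3%. Mxi1, a Max partner that opposes Myc, had a TGFβ promoter region of 1150 bp at the score cap and a 10 min region of 583 bp. Zbtb17 encodes Miz1, through which Myc represses Cdkn2b and Cdkn1a. It had no vehicle region in its locus and 4 TGFβ regions, with a promoter region of 324 bp and a score of 945. Mycl1 and Mlx were called in the 10 min list alone, and Mycn and Mxd4 in no list.

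Of the 8 factors known to work with Smads on these genes all were called in the vehicle list and 7 in each of the others. The exception was Sp1, whose vehicle region was 263 bp wide with a score of 615. Klf10, a TGFβ-inducible early gene, had 1 vehicle region and 4 TGFβ regions in its locus, and Trp53 had a promoter region of 316 bp in the vehicle list and 2494 bp in the TGFβ list. These last genes were chosen after their values had been seen.

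**Figure D5:**
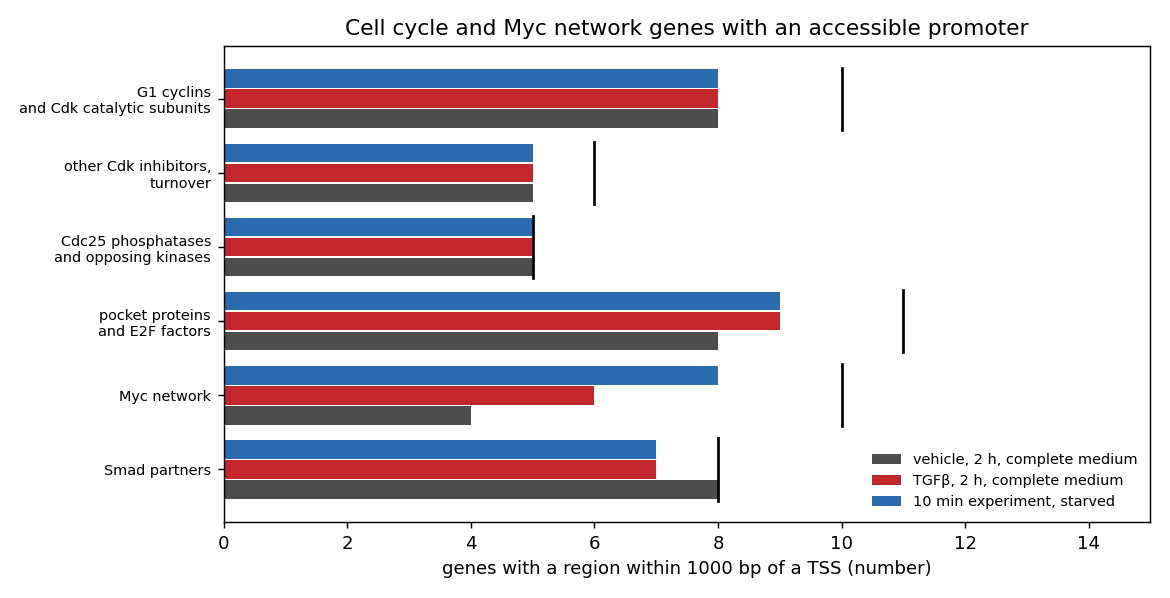
Number of genes with a region within 1000 bp of a TSS in the vehicle (grey), TGFβ (red) and 10 min (blue) lists for 6 lists of G1 and Myc network genes, with a black bar at the number of genes in each list. Counts are the same in the 3 lists for the first 3 groups and are 4, 6 and 8 in the Myc network.

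The number of regions depended on the limit of 20 kb. With 10 kb on either side there were 13 TGFβ regions, 7 of them TGFβ-only, and 1 vehicle-only region, and with 50 kb there were 17 vehicle and 37 TGFβ regions, 22 of the latter TGFβ-only. In the vehicle list the region farthest inside it lay 19596 bp from Cdkn1c and the nearest outside 22887 bp from Cdkn1a. For the TGFβ list these distances were 17896 bp and 22118 bp, both at Cdkn1a, and for the 10 min list 16406 bp at Cdkn2a and 21971 bp at Cdkn1b.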

How the data were processed

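ATAC-seq peak lists of NMuMG cells were analysed as deposited. According to the study's methods, reads went through the ENCODE ATAC-seq pipeline with alignment to mm9, peaks were called with MACS2 2.1.2 and kept by IDR. The correction for the offset of Tn5 insertions is stated for footprints, and for peak calls only the pipeline is named. The score in the deposited lists is the scaled IDR that the authors' pipeline wrote, capped at 1000, and it was used to filter and rank only within a list. Scores of a site in different lists are given side by side as deposited and were not compared. The study speaks of duplicates, whereas the labels give 1 sample per condition, so what the IDR compared was not settled. One list is named by both 10 min samples and is itself named after TGFβ.

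Intervals under 150 bp were dropped and gaps under 1000 bp closed, as in the study. A list gives positions and scores without read counts. The depth behind a region is therefore unknown here, read totals per library that accompany the study were not used, and a region missing from a list may lie just under the IDR threshold. Neither condition had replicates, and no test was made. Intervals for shares and for the ratio of 2 counts are exact (Clopper-Pearson) at 95% and cover counting error only, while neighbouring regions are not independent. The background was the same count over all protein-coding genes of GENCODE vM1, which is built on the same assembly. No region lay outside its chromosomes. The study itself used another gene catalogue.

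Consensus letters were searched on both strands: TGACTCA or TGAGTCA for AP-1, for SMAD the palindrome GTCTAGAC and the half-site CAGACA, CCGGAAGT for ETS, GGCGGGAA for the TGFβ inhibitory element, CACGTG for the E-box, TGTTTAC for FoxO and GGGCGG for Sp1, besides the CTCF consensus. GGCGGGAA and GGGCGG can overlap.

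The genes, lists and motifs were chosen with earlier results of these data known. Named were the 8 genes, genes whose start lies in a region counted for them, and network genes whose promoter call differed between the complete-medium lists or was missing in all. Regions named were those in 1 complete-medium list, at a start, or widest in a locus. Alternatives covered the merging, minimum width, score, list length, windows and overlap rule. The counting was tested on simulated lists. Python 3.11.15, SciPy 1.17.1 and matplotlib 3.10.9 were used.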

Additional observations from a re-analysis of the deposited data

How the results depend on the processing

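Of 70 values recomputed for 9 results under 11 settings, 52 stayed within 1.5 times the value reported and 18 did not. Myc had no vehicle promoter region and had a TGFβ promoter region under every setting that could change a promoter call. These were distinct deposited intervals, merging of touching intervals only, the minimum width, the median score, equal list length and a TSS window of 200 bp. The other settings changed only the locus limits or the overlap rule and left promoter calls as they were by construction. Ccnd1 had no vehicle promoter region under any setting. Among the settings that could change the call, it kept the TGFβ one with distinct intervals, touching-only merging and the 200 bp window. It lost that region with a minimum width of 300 bp, with peaks at or above the median score, and with the lists reduced to equal length. The number of TGFβ regions per vehicle region ran from 1.40 to 3. With peaks at or above the median score, promoter regions were left at 3 genes in the vehicle list and 3 in the 10 min list, and the loci held 4 vehicle, 12 TGFβ and 8 10 min regions with 0 vehicle-only. With flanks of 50 kb there were 17 vehicle, 37 TGFβ and 22 TGFβ-only regions. With flanks of 10 kb there were 13 TGFβ, 7 TGFβ-only and 1 vehicle-only. A minimum width of 300 bp gave 13 TGFβ, 7 TGFβ-only and 1 vehicle-only. Distinct deposited intervals gave 31 in the TGFβ list, 19 of them TGFβ-only. With the longer lists shortened by score to as many regions as under vehicle, 7 TGFβ-only regions were left. These counts follow from fewer or more intervals entering the windows.

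No paired analysis was possible because the results come from no test and a condition was represented by 1 list. Leaving out a replicate was not possible for the same reason. The lists give no depth, so a region missing from one of them is not shown to be closed.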
